A study of Mus musculus with 5 samples.

Results

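Injured tibialis anterior, the muscle at the front of the shin, was compared between day 1 and day 3 after an injection of cardiotoxin, in 217 miRNA assays, every miRNA assay of the series. The mice were C57BL/6J males aged 4 to 6 months. Each had received 100 µl of 2.5 µM cardiotoxin, a peptide from snake venom that breaks open muscle fibres, below the knee of either hind leg, and 4 mice were taken per time point per the labels. Both arms compared are therefore injected muscle, and uninjected muscle of the same strain (baseline) is used only to place the levels. Part of each muscle was homogenized whole, so every value is a mean over fibres, satellite cells, invading blood cells, vessels and connective tissue, and in such bulk RNA fewer cells of a type and less RNA per cell cannot be told apart. Each arm held 4 threshold cycles (Ct) per assay from TaqMan RT-PCR, Ct being the PCR cycle at which fluorescence crosses a set line. Less cycling is needed where RNA is plentiful, so more RNA gives a lower Ct, and 1 cycle is about 1 doubling. The 4 values of an arm were taken as its 4 mice, which the files do not state, and should any be repeat measurements of 1 RNA, the p-values would reflect technical spread.

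A miRNA is a short RNA that pairs with messenger RNAs mainly through its seed, bases 2 to 8 from its 5′ end, and lowers their stability and translation. Cardiotoxin kills fibres within hours. Neutrophils and then monocytes and macrophages enter to clear the debris, while satellite cells, the resident stem cells of muscle, leave quiescence, divide as myoblasts and later fuse into new fibres. The interval from day 1 to day 3 spans the change from early inflammation to clearance and proliferation, and muscle, blood and stem cells each carry miRNAs known as their markers.

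RefSeq mature sequences (GRCm38.p6) were matched by name to 183 of the 217 assays. The sequences below belong to miRNAs on which the results turn, and to relatives with the same seed that moved otherwise or with them. Capitals mark the seed.

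miR-31: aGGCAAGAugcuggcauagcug
miR-370: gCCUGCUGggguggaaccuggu
miR-433: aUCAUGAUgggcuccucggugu
miR-351: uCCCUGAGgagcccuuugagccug
miR-125b-5p: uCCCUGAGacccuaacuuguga
miR-125a-5p: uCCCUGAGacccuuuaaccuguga
miR-34a: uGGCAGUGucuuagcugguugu
miR-449a: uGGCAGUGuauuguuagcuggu
let-7a: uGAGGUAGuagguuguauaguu
miR-98: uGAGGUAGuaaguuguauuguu
miR-103: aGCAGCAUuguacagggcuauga
miR-107: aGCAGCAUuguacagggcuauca
miR-329: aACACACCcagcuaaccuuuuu
miR-362-3p: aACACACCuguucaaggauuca
miR-489: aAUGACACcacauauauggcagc
miR-425: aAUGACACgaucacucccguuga
miR-223: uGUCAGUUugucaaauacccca
miR-680: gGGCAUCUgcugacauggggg
miR-192: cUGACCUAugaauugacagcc
miR-215: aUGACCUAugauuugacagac
miR-30e: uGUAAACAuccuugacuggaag
miR-384-5p: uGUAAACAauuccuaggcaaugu

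In RefSeq (GRCm38.p6) the mature miR-31 lies at chr4:88910614-88910635 on the minus strand within the lncRNA Gm49890. miR-370 lies at chr12:109618305-109618326 on the plus strand within the lncRNA Rian, and miR-433 at chr12:109591781-109591802 on the plus strand within the bounds of Rtl1. miR-351 lies at chrX:53053315-53053338 on the minus strand within the lncRNA C430049B03Rik, and miR-223 at chrX:96242884-96242905 on the plus strand within the lncRNA F630028O10Rik. miR-489 lies within Calcr, the calcitonin receptor gene, at chr6:3721922-3721944 on the minus strand.

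Most assays gave a signal in both arms. Detection required a Ct under 35 in 3 or more of the 4 values, which held for 214 miRNAs on day 1 and 216 on day 3. The 213 detected in both arms were tested, and the other 4 are given as bounds. The median Ct over all miRNA values was 22.80 on day 1 and 22.60 on day 3. The labelled tissue carried its own markers: miR-133a, specific to striated muscle, had a mean baseline Ct of 9.35. Of the 5 control RNAs, U6, the spliceosomal RNA that the files mark as the endogenous control, had Ct values of 13.30, 12.95, 11.48 and 12.44 on day 1 and 13.75, 12.92, 12.36 and 12.99 on day 3, which overlap (exact permutation test, two-sided, p = 0.4571). Y1, a small cytoplasmic RNA, had 23.02, 23.50, 21.96 and 22.16 on day 1 and 20.93, 20.79, 20.81 and 21.16 on day 3, a difference beyond the overlap of the arms (exact permutation p = 0.0286, the smallest that 4 against 4 allow).

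Because the control RNAs moved apart, changes are given as log2 of day 3 over day 1 relative to the median miRNA. For that, each set of values was shifted by the median deviation of the 205 miRNAs with a Ct under 35 throughout. Errors are the standard errors (SE) of a limma fit over all 6 arms of the series, with 4 values per arm. Each SE, and the p-value with it, therefore pools the spread of every arm and does not measure the scatter of day 1 and day 3 alone. Below, rose and fell are used of a miRNA that passed limma's test at a Benjamini-Hochberg adjusted p under 0.05 over the 213 miRNAs on both scales, the median miRNA and U6. On the U6 scale a miRNA's change is 0.39 higher.

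By this rule 70 of the 213 miRNAs rose from day 1 to day 3 (32.9%) and 28 fell (13.1%), while 115 did neither. These shares over all 213 are the background for every list count of risers and fallers below. The rises ranged up to 6.04 and the decreases down to -4.75, with a median change over all tested of -0.09. At least 4-fold changes were reached by 22 risers and 13 fallers. In all 70 risers and in 26 of the 28 fallers the 4 scaled values of day 3 lay apart from the 4 of day 1, the exceptions being miR-133a and miR-486. Among all 213, arms lay apart upward in 77 (36.2%) and downward in 71 (33.3%). The median Ct of the risers was 24.45 on day 1 and 23.50 on day 3, that of the fallers 20.89 and 23.33, and that of the 115 others 21.37 and 21.54. These medians describe the called groups and do not compare levels between assays.

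The balance of the change depended on the reference. Relative to the median miRNA alone 80 miRNAs were higher on day 3 (37.6%) and 77 lower (36.2%); relative to U6 it was 70 against 28. With snoRNA135, a small nucleolar RNA, as the reference it was 38 against 121, and with Y1 13 against 165. The remaining control RNAs gave 72 against 94 (snoRNA202) and 57 against 80 (U87). With the median Ct of each set of values it was 69 against 100, and with the baseline mean as the reference level 67 against 103. Relative to the median miRNA, U6 itself had a change of -0.39. The other control RNAs had 0.24 (snoRNA202), 0.30 (U87), 0.82 (snoRNA135) and 1.81 (Y1). The calls rose and fell thus require the only control RNA with a negative change. Y1 shifted every change by -1.81 and turned 43 of the 70 rises negative, snoRNA135 shifted them by -0.82 and turned 4, and no decrease turned positive with a control RNA. The U6 calls leaned on a few values: day 1 values 1 and 2, chosen after seeing the data, gave 33 risers and 34 fallers, and day 1 values 3 and 4 gave 80 and 13.

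**Figure D1:**
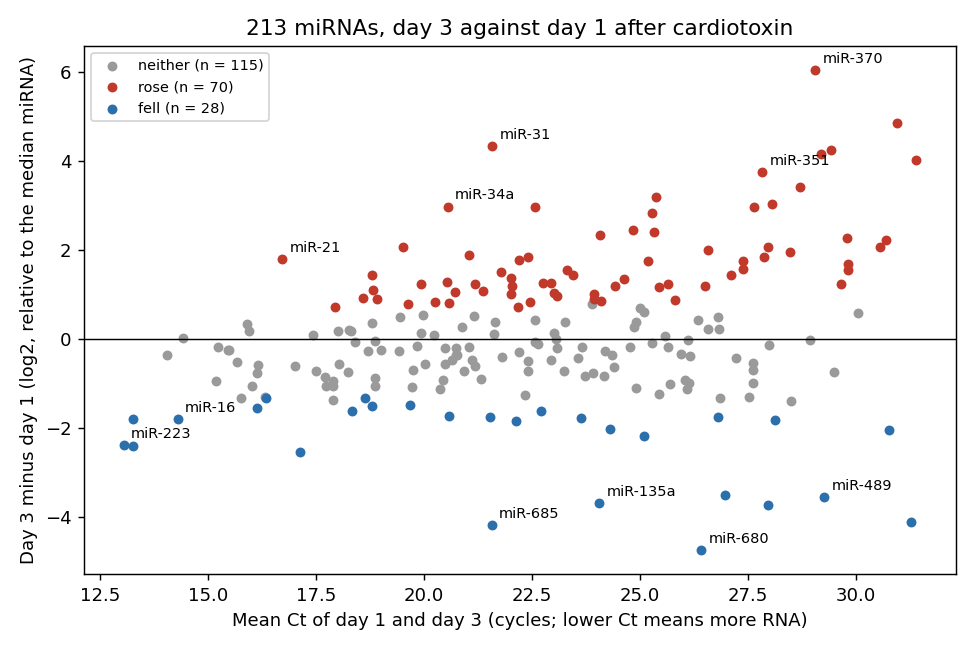
Each point is 1 of the 213 miRNAs: the x axis is its mean Ct over both arms (cycles, lower means more RNA), the y axis its log2 change from day 1 to day 3 relative to the median miRNA, red if it rose, blue if it fell and grey if neither. The changes run from -4.75 for miR-680 to 6.04 for miR-370, and miR-31 stands at 4.33.

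Among the miRNAs with known roles in regeneration, miR-31 and miR-351 rose and miR-223 fell. miR-31, which in quiescent satellite cells holds back translation of the muscle determination factor Myf5, had Ct values of 23.67, 23.79, 23.58 and 23.83 on day 1 and 19.80, 19.13, 19.18 and 19.74 on day 3. All 4 day 3 values lay over 3 cycles below every day 1 value. It rose by 4.33 ± 0.22 (SE), 20.1-fold (limma adjusted p = 2.76e-13; 4.72 relative to U6). miR-351, a relative of miR-125 reported to support myoblast proliferation, had Ct values of 30.72, 28.51, 29.25 and 30.19 on day 1 and 25.86, 25.94, 25.79 and 26.39 on day 3. The day 1 values were spread over more than 2 cycles and the day 3 values over less than 1, without overlap. It rose by 3.75 ± 0.51, 13.5-fold (adjusted p = 1.27e-06). Relative to baseline, miR-31 stood at 2.23 on day 1 and 6.56 on day 3, and miR-351 at 3.91 and 7.66.

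miR-223, made in neutrophils and other myeloid cells, went the opposite way. Its Ct values were 11.93, 11.87, 11.47 and 12.02 on day 1 and 14.59, 14.23, 14.04 and 14.28 on day 3, with a gap of about 2 cycles between the arms. miR-223 fell by 2.39 ± 0.12, 5.22-fold (adjusted p = 2.76e-13; relative to U6, adjusted p = 0.000273). On day 3 it was still 4.07 above its baseline level, against 6.46 on day 1.

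The largest rises among the tested miRNAs, those of miR-370 and miR-433, came from the Dlk1-Dio3 region. It is an imprinted stretch of chromosome 12 whose miRNAs are transcribed from the maternal allele as part of long noncoding RNAs. These are high in embryonic and regenerating tissue. Of the region's 29 tested members 25 rose (against 32.9% of all 213) and 0 fell (against 13.1%). Their median was 1.75 against -0.09 over all 213 miRNAs, and relative to Y1 that median was -0.06. miR-370 had Ct values of 33.19, 34.58, 30.25 and 30.18 on day 1 and 26.00, 26.38, 25.68 and 26.27 on day 3. Its day 1 values fell into a higher and a lower pair, both above every day 3 value. It rose by 6.04 ± 0.69, 66.0-fold (adjusted p = 1.36e-07), or 5.19 without day 1 value 2 and 6.70 without day 1 value 4. The SE and p-value pool all 6 arms, while the standard deviation of its Ct was 2.19 on day 1 and 0.31 on day 3.

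miR-433 had Ct values of 34.34, 33.45, 32.28 and 33.30 on day 1 and 28.80, 28.81, 27.96 and 28.69 on day 3. It rose by 4.85 ± 0.31, 28.9-fold, and since its day 1 Ct was close to the limit of 35 that fold starts near the limit of detection. miR-323-3p rose by 4.02 ± 0.47, miR-376b by 3.42 ± 0.44, miR-134 by 3.18 ± 0.41, miR-431 by 3.03 ± 0.55 and miR-543 by 2.97 ± 0.35. The mean day 1 Ct of miR-323-3p was 33.37, also close to the limit of 35, and miR-376b had 2.88 without day 1 value 2. miR-134 is best known from neurons, where it restrains dendritic spine growth, and miR-431 and miR-433 are processed from a transcript antisense to Rtl1. The tightest of the large rises was that of miR-409-3p, with Ct values of 24.25, 23.91, 23.92 and 23.96 on day 1 and 21.22, 21.03, 20.93 and 21.32 on day 3. It rose by 2.96 ± 0.12 (7.79-fold).

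Along the locus the rises were widespread but unequal. RefSeq positions were found for 28 members, in a block of 8 near Rtl1 and a block of 19 downstream, with miR-370 alone between them. In the block near Rtl1 5 of 8 rose, and in the downstream block 18 of 19. The exceptions were miR-337-5p at 0.38, miR-434-3p at -0.11, miR-136 at -0.77 and miR-667 at 0.50. miR-434-5p rose by 1.76 and miR-434-3p of the same hairpin had -0.11, and miR-337-3p rose by 1.19 and miR-337-5p had 0.38, differences between arms that were not tested. Both arms of miR-369 rose, by 2.06 for the 3p arm and 1.55 for the 5p arm. The mean level of the 29 members was between -1.53 and -0.79 relative to baseline in the 4 day 1 values and between 0.86 and 0.94 in the 4 day 3 values. With day 1 values 1 and 2 alone 16 of the 29 passed both scalings.

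**Figure D2:**
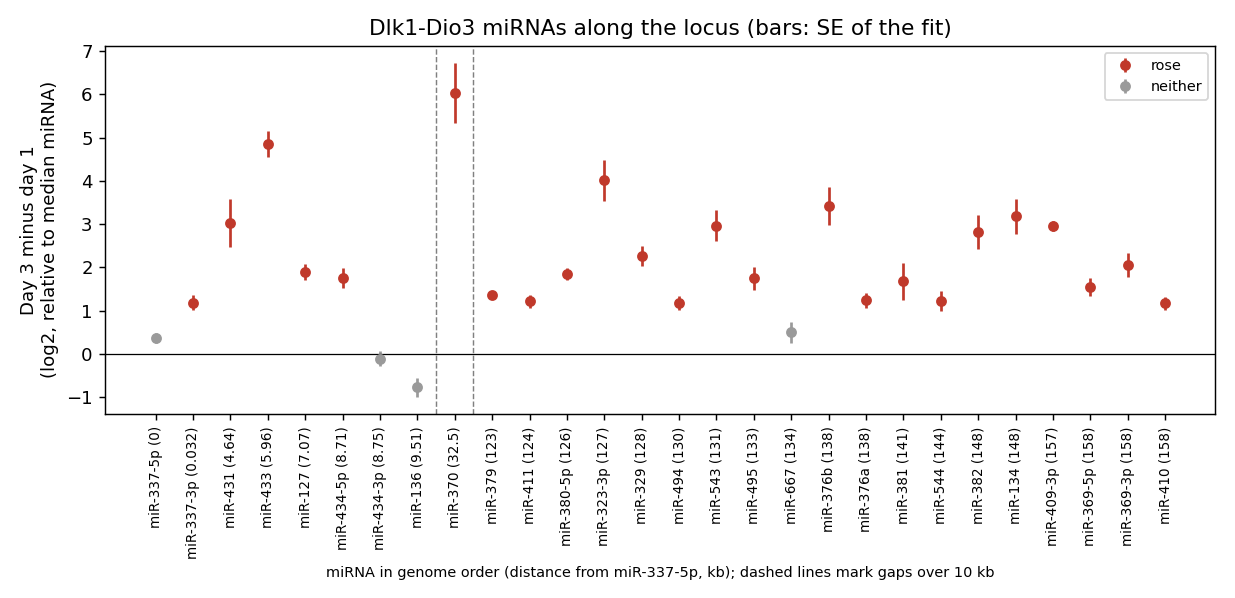
Points are the log2 changes from day 1 to day 3 relative to the median miRNA of 28 Dlk1-Dio3 miRNAs in genome order, with bars for the SE, red if the miRNA rose and grey if neither. Numbers in parentheses are distances from miR-337-5p in kb, and dashed lines mark gaps over 10 kb; miR-370, miR-433 and miR-323-3p stand highest, and miR-136 lowest at -0.77.

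The miR-34 family, transcriptional targets of p53 that slow the cell cycle, rose in all 3 members on the list (against 32.9% of all 213). Their median of 2.40 remained positive with every control RNA, down to 0.58 relative to Y1. miR-34a had Ct values of 21.97, 21.86, 22.02 and 22.18 on day 1 and 19.11, 19.32, 18.84 and 19.18 on day 3. The values within each arm lay within 0.5 of each other and the arms were more than 2 cycles apart. It rose by 2.97 ± 0.15, 7.85-fold (adjusted p = 2.76e-13). miR-34c rose by 2.40 ± 0.25 and miR-34b-3p by 1.83 ± 0.15. miR-449a, which has the seed of miR-34a, rose by 1.44 ± 0.24. Positions counted from 1 at the 5′ end, with the base of miR-34a first, the pair differ by C10A, A13G, G14U, C15U, U16A, G18C and U20G, all outside the seed.

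The fibroblast and smooth muscle list went both ways relative to the median miRNA, with 4 of its 6 members higher and 2 lower (against 37.6% and 36.2% of all 213). Those 4 also rose on the U6 scale (against 32.9% of all 213), and the 2 lower ones did not pass on it. miR-21, which accumulates in injured and fibrosing tissue, had Ct values of 17.63, 17.36, 17.59 and 17.76 on day 1 and 15.67, 16.28, 15.45 and 16.05 on day 3. It rose by 1.80 ± 0.18, 3.48-fold, but had -0.02 relative to Y1. miR-214 and miR-199a, cut from a shared noncoding transcript of mesenchymal cells, rose too: miR-214 by 2.06 ± 0.16, miR-199a-3p by 1.43 ± 0.18 and miR-199a-5p by 4.16 ± 0.84. The last rests on a scattered day 1, with Ct values of 30.63, 34.10, 30.77 and 29.46 against 27.03, 27.28, 26.78 and 27.52 on day 3, and was 3.20 without day 1 value 2. miR-143 and miR-145, markers of vascular smooth muscle, were lower relative to the median miRNA (-1.38 ± 0.17 and -1.34 ± 0.15) but missed the test relative to U6 (limma adjusted p = 0.0699 and 0.103). Of the 6 members 4 rose and 0 fell, with a median of 1.62 (-0.20 relative to Y1), and the fallers numbered 2 without day 1 value 3 and 1 without day 3 value 1. Their mean level relative to baseline was between -1.07 and -0.20 in the day 1 values and between 0.28 and 0.61 on day 3.

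Among endothelial miRNAs both products of the miR-126 hairpin, which lies in the endothelial gene Egfl7, fell. miR-126-3p had Ct values of 12.56, 12.42, 12.10 and 12.18 on day 1 and 14.44, 13.97, 14.03 and 14.38 on day 3, with no overlap. It fell by 1.81 ± 0.13, 3.51-fold, although quantile scaling gave 0.07. miR-126-5p fell by 1.55 ± 0.19, a call lost without day 1 value 1 or day 3 value 3. miR-221, which targets the cell cycle inhibitor p27, rose by 1.22 ± 0.20 (-0.59 relative to Y1), and the call was lost without day 1 value 3. miR-222 had 0.17 and miR-218 had -0.18, so that of 5 tested members 1 rose (against 32.9% of all 213) and 2 fell (against 13.1%). Their mean level relative to baseline was between 0.30 and 0.60 in the day 1 values and between -0.21 and 0.12 on day 3.

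The let-7 family, high in differentiated cells and known to restrain growth genes, rose in 6 of 9 members (against 32.9% of all 213) with 0 falling. The median was 0.83, against -0.98 relative to Y1, 2 rose without day 1 value 3 and 3 without day 3 value 1. let-7a had Ct values of 22.01, 22.65, 22.50 and 22.80 on day 1 and 20.78, 21.60, 20.62 and 21.27 on day 3, and rose by 1.5 ± 0.22 (-0.32 relative to Y1). let-7f rose by 0.97 ± 0.14 (-0.84 relative to Y1), a call lost without day 1 value 3 or day 3 value 1. miR-98, which shares the let-7 seed and differs from let-7a by G11A and A19U, rose by 4.25 ± 1.34 from Ct 31.88, 31.48, 29.93 and 32.78 to 27.78, 27.44, 26.61 and 27.56. Its arms lay apart, and its SE was the largest of the 12 largest rises. That SE pools all 6 arms, and its baseline values were 30.20, 29.20, 36.18 and 26.23. let-7g had -0.25, let-7e 0.16 and let-7d 0.49. How far each assay separates such near-identical members is not given in the sources used here.

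A similar pair is miR-103 and miR-107, from introns of the pantothenate kinase genes Pank3 and Pank1, which differ by G22C alone, with the base of miR-103 first. miR-107 had Ct values of 33.00, 34.17, 29.74 and 30.21 on day 1 and 29.36, 29.52, 29.58 and 30.04 on day 3. The raw arms overlapped: day 1 values 3 and 4 lay within or close to the day 3 range. It passed both scalings at 2.23 ± 0.62, but had -0.06 with quantile scaling, 1.43 without day 1 value 2 and 0.46 with day 1 values 3 and 4 alone. That SE pools all 6 arms, while the standard deviation of its Ct was 2.15 on day 1 and 0.29 on day 3. miR-103 had -0.17 ± 0.29 (adjusted p = 0.595). The difference between the pair was not tested.

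All 6 members of the Clcn5 gene list, intronic miRNAs of a chloride channel gene on the X chromosome, rose (against 32.9% of all 213). Their median was 1.10 (-0.72 relative to Y1), and without day 1 value 3 the risers were 3 of 6. miR-501-3p had Ct values of 25.13, 24.57, 25.37 and 25.80 on day 1 and 22.64, 23.03, 22.81 and 23.38 on day 3, and rose by 2.33 ± 0.29. miR-362-3p rose by 1.55 ± 0.24 (-0.27 relative to Y1) and miR-532-3p by 1.27 ± 0.12 (-0.54 relative to Y1). miR-362-3p shares its seed with miR-329 of Dlk1-Dio3, on another chromosome, which rose by 2.26 ± 0.23.

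The X-linked cluster holds miR-351 beside miR-450a, miR-542, miR-503 and miR-322. Of these, miR-322 and miR-503 are known to be induced as myoblasts leave the cell cycle. Among 6 tested members only miR-351 rose (against 32.9% of all 213) and only miR-542-5p fell (against 13.1%). miR-542-5p had Ct values of 27.52, 27.37, 26.47 and 27.35 on day 1 and 29.02, 29.07, 28.86 and 29.39 on day 3, without overlap. It fell by 1.83 ± 0.18, and the other arm of its hairpin, miR-542-3p, had -0.13 ± 0.23, a difference that was not tested. miR-503, which represses cyclin D1 and Cdc25a, had -0.02 ± 0.16. miR-322 and miR-450a-5p were lower relative to the median miRNA, both at -1.13, but not relative to U6 (limma adjusted p = 0.235 and 0.26). Among 22 genome clusters, groups of tested miRNAs with a matched position and gaps of at most 10 kb, this was the 1 with both a riser and a faller.

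Of 11 tested satellite cell and myoblast miRNAs 3 rose, miR-31, miR-125b-5p and miR-27b, 1 fell and 7 did neither, shares near or below those over all 213. Relative to the median miRNA alone, 3 of the 11 were higher and 7 lower (against 37.6% and 36.2% of all 213). The median change of the 11 was -0.36. Their mean level relative to baseline was between -0.72 and -0.47 in the day 1 values and between -0.93 and -0.61 on day 3, which overlap. The member to fall, miR-489, which keeps satellite cells quiescent by repressing Dek, had Ct values of 27.67, 27.74, 27.05 and 27.38 on day 1 and 32.53, 30.53, 30.31 and 30.98 on day 3. The lowest day 3 value was over 2 cycles above the highest of day 1. It fell by 3.55 ± 0.37, 11.7-fold (adjusted p = 3.07e-08), and stood at -1.53 relative to baseline on day 1 and -5.08 on day 3. miR-425, which has the same seed as miR-489, had -0.42 ± 0.60 (adjusted p = 0.536). miR-125b-5p, with the seed of miR-351, rose by 1.11 ± 0.14 (-0.71 relative to Y1), a call lost without day 1 value 3, and miR-125a-5p of that seed had 0.08. Without day 1 value 3 the list held 1 riser.

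**Figure D3:**
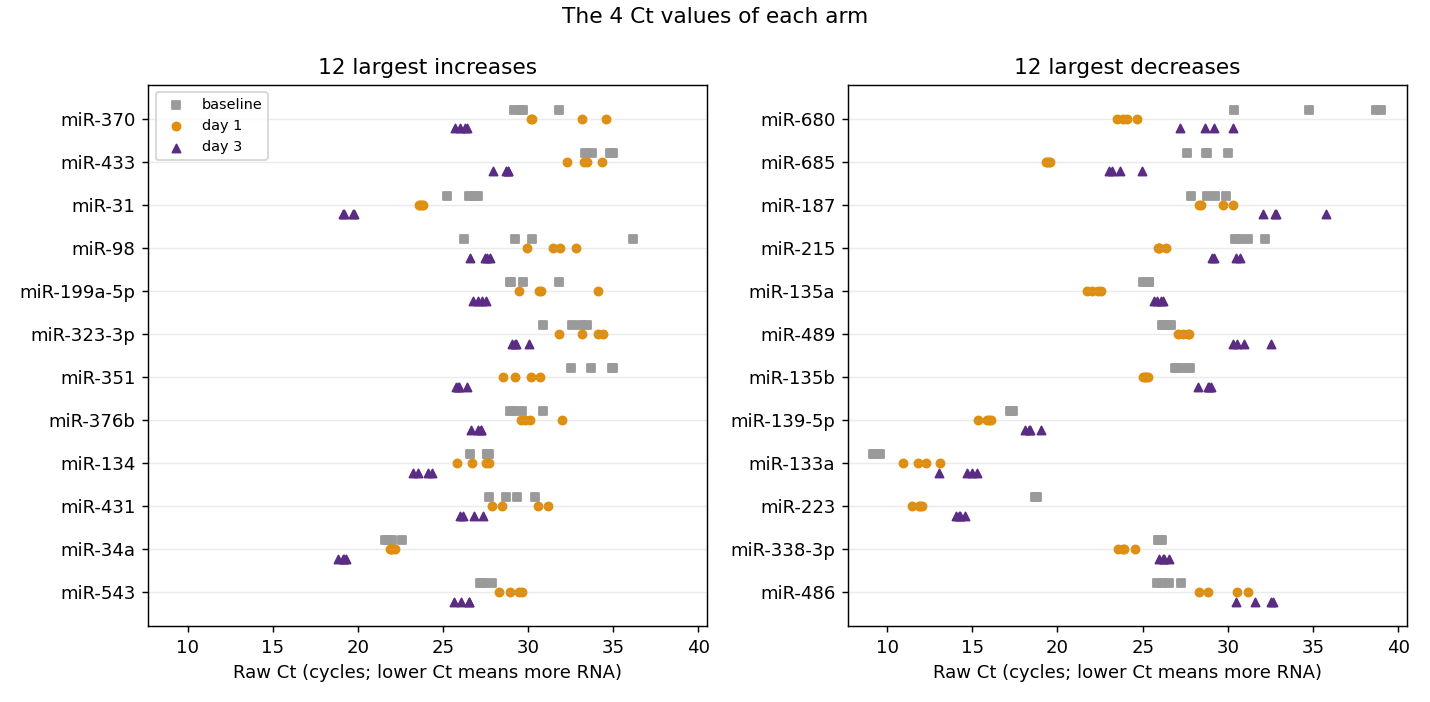
Raw Ct values (x axis, cycles, lower means more RNA) at baseline (squares), on day 1 (circles) and on day 3 (triangles), 4 per arm, for the 12 largest rises and the 12 largest decreases. miR-31 and miR-34a show tight, separate arms, miR-370 and miR-199a-5p a scattered day 1, and miR-133a and miR-486 arms that overlap.

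The muscle-enriched miRNAs were lower again on day 3, with 3 of 4 tested members falling (against 13.1% of all 213), 0 rising and a median of -1.83. The mean level of the 4 was between -4.96 and -2.68 relative to baseline in the day 1 values and between -5.84 and -4.57 on day 3, which overlap. miR-133a, which supports myoblast proliferation and marks striated muscle, had Ct values of 12.26, 13.11, 10.94 and 11.79 on day 1 and 15.30, 13.05, 14.71 and 14.99 on day 3. Day 3 value 2 fell within the day 1 range and the other 3 lay above it. It fell by 2.41 ± 0.41, 5.32-fold (adjusted p = 2.08e-05). miR-486, made from the muscle gene Ank1, fell by 2.05 ± 0.55 with overlapping arms, 30.52, 31.17, 28.28 and 28.84 against 32.53, 31.62, 30.51 and 32.65. Its change was -0.92 with day 1 values 1 and 2 alone.

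miR-133b fell by 1.62 ± 0.27, a call that was lost without day 1 value 1, day 3 value 3 or day 3 value 4 (limma adjusted p relative to U6 of 0.0557 to 0.0883). miR-1, the other main miRNA of striated muscle, had Ct values of 16.90, 19.18, 16.09 and 17.36 on day 1 and 18.53, 17.42, 18.73 and 18.96 on day 3. The arms overlapped, and its change of -0.95 ± 0.47 missed the threshold (limma adjusted p = 0.0713, and 0.475 relative to U6). It passed with snoRNA135 (-1.77, adjusted p = 0.00301), snoRNA202 (-1.19, 0.02225), U87 (-1.25, 0.0121) and Y1 (-2.765, 4.295e-07). It also passed with median Ct (0.01168) and the baseline reference (0.0128), but not with quantile (0.1837) or raw scaling (0.05689). Without day 1 value 2 the change was -1.56, which passed relative to the median miRNA (adjusted p = 0.000938) but not to U6 (0.18). Without day 3 value 2 it was -1.28 (0.02116, and 0.2938 relative to U6). miR-499, encoded in the slow myosin gene Myh7b, was detected on day 1 only: its Ct values were 28.64, 30.84, 29.48 and 29.38, against 36.00, 35.97, 36.19 and 37.01 on day 3, at least 40.4-fold lower on day 3 (31-fold relative to U6).

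The myeloid and lymphoid list held 11 tested miRNAs, of which 3 fell (against 13.1% of all 213) and 1 rose (against 32.9%), with a median of -1.07. Their mean level was between 2.77 and 3.09 relative to baseline in the day 1 values and between 2.07 and 2.41 on day 3. The second member to fall was miR-147, induced in macrophages by Toll-like receptor signals, which had Ct values of 25.57, 26.04, 25.81 and 26.21 on day 1 and 28.56, 27.60, 27.15 and 27.62 on day 3. It fell by 1.75 ± 0.50 (adjusted p relative to U6 of 0.0481). With any single value other than day 1 value 3 left out, in 7 of 8 runs, it no longer passed. miR-150, of mature lymphocytes, fell by 1.33 ± 0.20 (adjusted p on the U6 scale 0.0436) and no longer passed in 6 of 8 runs, those without day 1 values 1, 2 or 4 or day 3 values 2, 3 or 4. Within those same 6 runs 1 member of the list fell.

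Among the other members of the list, miR-155, miR-146a, miR-146b and miR-142-5p were lower relative to the median miRNA only. miR-155 of activated leukocytes had -1.08 ± 0.15, and miR-146a and miR-146b, which damp NF-κB signalling, had -1.30 ± 0.20 and -1.07 ± 0.16, with adjusted p relative to U6 of 0.208, 0.0931 and 0.194. The products of the haematopoietic miR-142 hairpin had -0.53 ± 0.26 (3p) and -0.73 ± 0.16 (5p), and miR-181a had 0.12 ± 0.28. On the median miRNA scale miR-142-3p and miR-181a did not pass. The 2 arms of the miR-342 hairpin differed in call: miR-342-5p had Ct values of 29.36, 29.51, 29.22 and 29.54 on day 1 and 27.07, 27.77, 26.79 and 28.54 on day 3, and rose by 1.94 ± 0.38, while miR-342-3p had 0.36 ± 0.29. The difference between those arms was not tested. miR-451 of red cells had -1.05 ± 0.36 (adjusted p = 0.0111; 0.345 relative to U6). How far a change in these cells' number bears on the other miRNAs was not tested.

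**Figure D4:**
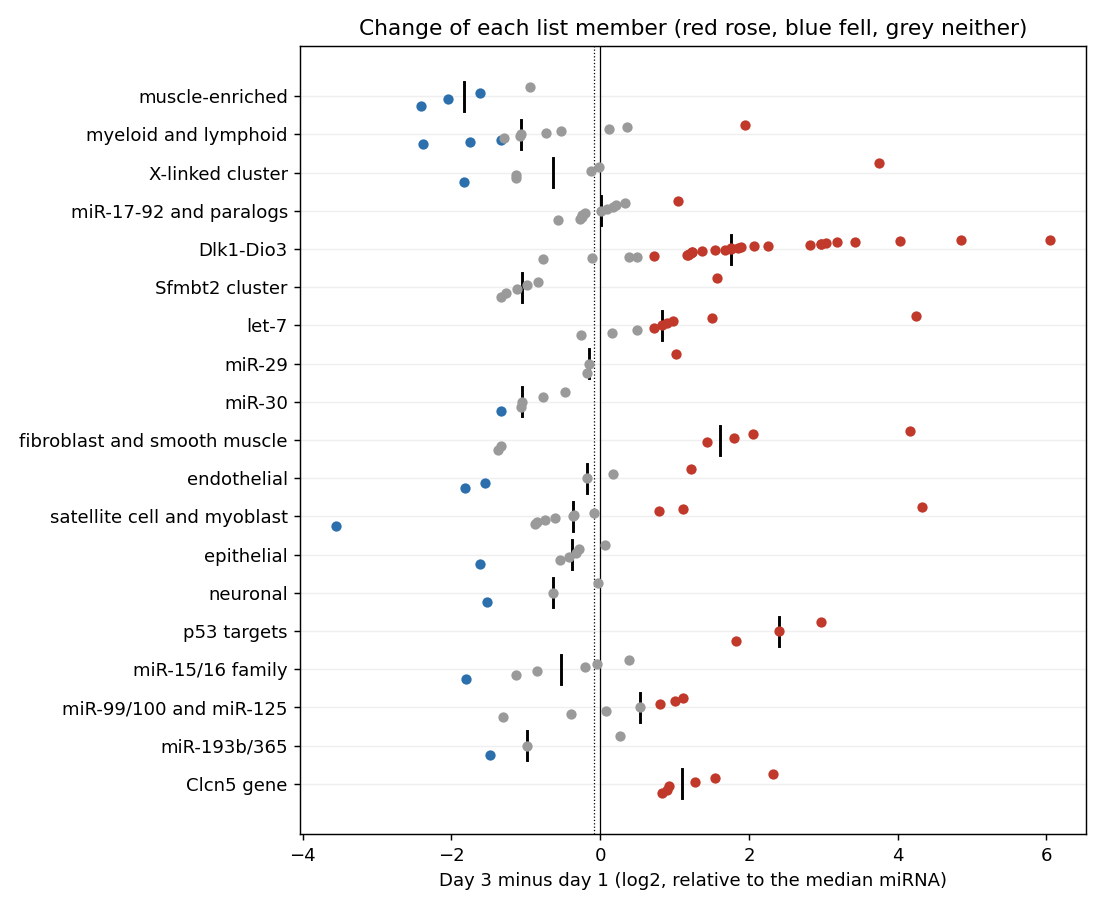
Each point is a miRNA of the list named on the y axis, at its log2 change from day 1 to day 3 relative to the median miRNA, red if it rose, blue if it fell and grey if neither, for lists with at least 3 tested members. Short vertical bars are list medians and the dotted line is the median of all 213 (-0.09): Dlk1-Dio3 is centred at 1.75, p53 targets at 2.40 and muscle-enriched miRNAs at -1.83.

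Among the tested miRNAs the deepest decreases were those of miR-680 and miR-685, which had been far above baseline on day 1. miR-680 had Ct values of 24.67, 23.82, 23.47 and 24.06 on day 1 and 30.31, 29.18, 27.21 and 28.64 on day 3. Every day 3 value lay over 2 cycles above every day 1 value, though the day 3 values were spread over 3 cycles. It fell by 4.75 ± 1.19, 27.0-fold (adjusted p = 0.00121), with an SE that also takes in the spread of its baseline values. miR-685, with 19.41, 19.31, 19.54 and 19.50 against 23.65, 24.94, 23.19 and 23.05, fell by 4.19 ± 0.77, 18.3-fold. Relative to baseline miR-680 stood at 11.27 on day 1 and 6.51 on day 3, although its baseline values, 30.37, 39.01, 38.73 and 34.77, met no detection rule. miR-685 stood at 8.90 and 4.71.

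miR-215 and miR-192, which share a seed and are typical of gut, liver and kidney, both fell. miR-215 had Ct values of 25.94, 25.98, 25.91 and 26.36 on day 1 and 30.50, 30.69, 29.19 and 29.10 on day 3, and fell by 3.75 ± 0.44 (13.4-fold). Going from miR-192 to miR-215 the bases differ by C1A, A12U and C20A. miR-192 fell by 1.85 ± 0.12 from Ct 21.31, 21.27, 20.88 and 21.21 to 23.44, 23.05, 22.78 and 23.12. miR-194, encoded beside both, fell by 1.77 ± 0.24. Tested assays with a matched sequence formed 27 families of shared seed, and assays without one are not in them. Among these 27, every tested member fell in 1, that of miR-192 and miR-215, and every tested member rose in 3 (miR-34a with miR-449a, miR-329 with miR-362-3p, and miR-7a with miR-7b), while 0 held both a riser and a faller.

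miR-135a and miR-135b, close relatives that target Wnt pathway genes, fell by 3.70 ± 0.20 and 3.51 ± 0.22. miR-135a had Ct values of 21.75, 22.01, 22.37 and 22.56 on day 1 and 26.08, 26.21, 25.86 and 25.65 on day 3, so that the arms were over 3 cycles apart. miR-187 had Ct values of 30.28, 29.69, 28.32 and 28.43 on day 1 and 32.82, 32.08, 32.80 and 35.77 on day 3, and fell by 4.11 ± 0.72. The size of that decrease leaned on day 3 value 4 and was -3.37 without it. miR-139-5p, from an intron of the phosphodiesterase gene Pde2a, fell by 2.56 ± 0.17 (5.88-fold), and miR-338-3p by 2.18 ± 0.19 (4.54-fold).

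In the miR-30 family, abundant in differentiated muscle, all 5 tested members were lower relative to the median miRNA (against 36.2% of all 213). Their median was -1.06, and 1 of the 5 passed both scalings (against 13.1% of all 213). miR-30e fell by 1.33 ± 0.17 (adjusted p relative to U6 of 0.0481) and no longer passed in 6 of 8 leave-one-out runs, those without day 1 values 1, 2 or 4 or day 3 values 2, 3 or 4. miR-30a and miR-30c both had -1.06. miR-384-5p, which has the miR-30 seed but another gene, had Ct values of 23.37, 23.58, 22.89 and 23.23 on day 1 and 25.58, 25.21, 25.21 and 25.46 on day 3, and fell by 2.02 ± 0.19 (adjusted p relative to U6 of 0.000805). miR-16, of the miR-15/16 family that represses cyclins and Bcl2, fell by 1.81 ± 0.16 from Ct 13.66, 13.30, 12.98 and 13.55 to 15.58, 14.97, 14.86 and 15.61. It was the only 1 of 6 family members called (13.1% of all 213 fell), with miR-195 at -0.86 ± 0.12 and a list median of -0.53.

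Of the 11 members of the miR-17 cluster and its paralogs, which promote proliferation, only miR-18a rose (against 32.9% of all 213). Its change was 1.05 ± 0.16 (-0.76 relative to Y1), a call lost without day 1 value 3, day 1 value 4 or day 3 value 1. miR-20a had 0.33, miR-93 had -0.57, and the median was 0.01. In the Sfmbt2 intron cluster 1 of 6 tested members rose (against 32.9% of all 213), miR-669a by 1.57 ± 0.35 (-0.25 relative to Y1). The other 5 tested members did not pass both scalings, with miR-467d at -1.34 and miR-467a at -1.26 relative to the median miRNA. Without day 1 value 3 or day 3 value 1 the count of fallers was 1. miR-29b, of a family that represses collagens, rose by 1.02 ± 0.19 (-0.79 relative to Y1), while miR-29a had -0.17 and miR-29c -0.16.

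Among 7 members of the miR-99/100 and miR-125 list 3 rose (against 32.9% of all 213), including miR-99b at 1.01 ± 0.31 (-0.81 relative to Y1). In that list miR-125b-3p had -1.31 ± 0.40 (limma adjusted p = 0.00572, and 0.174 relative to U6). miR-193b, a brown fat and muscle miRNA, fell by 1.49 ± 0.25, a call lost in 5 of 8 runs, those without day 1 values 1, 2 or 4 or day 3 values 3 or 4. Its neighbour miR-365 had 0.26 ± 0.30 and its relative miR-193 had -0.99 ± 0.16. Of 6 epithelial miRNAs 1 fell (against 13.1% of all 213), miR-200c by 1.62 ± 0.18, a call lost without day 1 value 1 or day 1 value 2. Its other members lay between -0.54 for miR-429 and 0.07 for miR-200b, with miR-141 at -0.43. Of 3 neuronal miRNAs miR-132, induced by neuronal activity, fell by 1.52 ± 0.14, a call lost without day 1 value 1, day 1 value 2 or day 3 value 3, and miR-128a had -0.63 and miR-9 -0.03.

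Besides miR-499, 3 miRNAs were detected in a single arm, all on day 3. miR-298, transcribed beside miR-296 at the imprinted Gnas locus, stayed at 40, the last cycle, in all 4 day 1 values and had Ct 26.18, 26.58, 26.17 and 26.81 on day 3. It was at least 400-fold higher on day 3 (at least 522-fold relative to U6), and its baseline values were also late, at 39.40, 35.89, 40.00 and 38.49. miR-675-3p, cut from the imprinted H19 RNA, had 40.00, 40.00, 34.26 and 36.34 on day 1 and 28.10, 28.60, 28.38 and 28.47 on day 3, at least 90.8-fold higher. Its baseline values, 30.28, 29.04, 29.04 and 27.81, lay near those of day 3. miR-665, of Dlk1-Dio3, was at least 24.3-fold higher, with 35.88, 35.44, 32.79 and 34.27 against 29.59, 29.81, 29.05 and 30.50. Each bound sets later day 1 values to Ct 35.

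**Figure D5:**
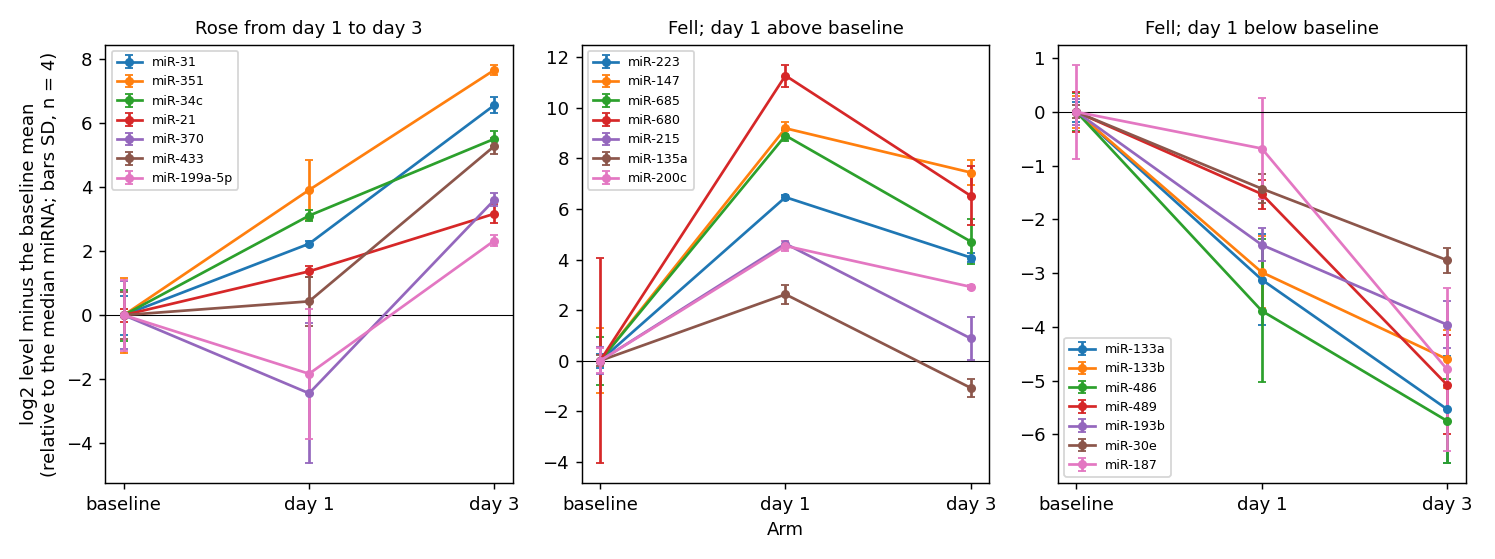
Mean log2 levels relative to the median miRNA at baseline, day 1 and day 3, each minus the miRNA's baseline mean (bars SD, 4 values), for miRNAs that rose (left) and that fell from a day 1 level above (middle) or below baseline (right). miR-31 and miR-351 were above baseline on day 1 and higher on day 3, miR-370 and miR-199a-5p crossed it, and miR-223 remained above it at 4.07.

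Set beside their baseline levels, the changes followed several courses. miR-31, miR-351 and miR-34c were above baseline on day 1 and further above on day 3, miR-34c at 3.11 and 5.50. miR-370 stood at -2.45 on day 1 and 3.60 on day 3, and miR-199a-5p at -1.84 and 2.33. miR-215 came down from 4.62 to 0.88, and miR-135a from 2.62 to -1.08, below its uninjected level. miR-133a went from -3.12 to -5.53 and miR-489 from -1.53 to -5.08. The comparisons with baseline share the day 1 and day 3 values with the comparison of the 2 days, so these levels are a description and no further test.

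Day 1 values 1 and 2 were later than values 3 and 4 for some miRNAs, a split noticed after seeing the data. Among the 25 tested miRNAs with a mean day 1 Ct over 28, the mean of values 1 and 2 was more than 1 cycle later than that of values 3 and 4 in 9, against 9 of the 188 others. On day 3 it was 1 of 25 and 3 of 188. The medians of that difference were 0.32 and 0.05 cycles on day 1. miR-370, miR-431, miR-107 and miR-486 were among those split in this way, and with day 1 values 3 and 4 alone they had 4.24, 1.70, 0.46 and -3.16.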

How the data were processed

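TaqMan RT-PCR assays were run on total RNA of tibialis anterior muscle, on a 7900HT instrument, per the labels. The authors deposited raw Ct values, 4 per assay and arm, with no normalization. How the threshold was set is not given in the sources used here. Day 1 and day 3 values came from separate files and were joined by assay name. The number of values, 4 per arm, limits the precision, and a Ct carries no read depth.

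Values at Ct 40 were left out, and a miRNA was tested if it had a Ct under 35 in at least 3 of 4 values of both arms. Each set of values was scaled to its median miRNA (205 miRNAs) and, separately, to U6. limma 3.58.1 in R 4.3.3 fitted 6 arms (baseline and days 1, 3, 4, 7 and 21; 18 residual degrees of freedom), and p-values were Benjamini-Hochberg adjusted over 213 miRNAs. On simulated data the U6 scale alone called more unchanged miRNAs than the median scale and missed more small changes. In that simulation U6 had the same mean in every arm, and rises matched decreases in number and size. The median miRNA was thus unchanged by design, so the simulation cannot show which scale holds for these data. Calls required both scales. Single control RNAs were compared by exact two-sided permutation tests. Alternatives were other control RNAs, median Ct, quantile and raw scaling, a baseline reference, Ct limits of 32, 38 or none, undetermined values at 40, both arms alone in the fit, limma-trend, a 2-fold minimum and leaving out each value.

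Members and lists were chosen with earlier results of these data known. The miRNAs named were the 12 largest rises and decreases, the muscle, myeloid and X-linked lists, up to 3 of each other list by size of change, those detected in 1 arm, and other arms of their hairpins. Others (miR-409-3p, miR-384-5p, miR-329, miR-449a, miR-425, miR-27b, miR-7a, miR-7b, and further let-7, Dlk1-Dio3 and paralog members) were named after their values were seen. Assay names without an arm were taken as the main arm.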

Additional observations from a re-analysis of the deposited data

Results flagged for a closer look

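Each set of 4 values of the named miRNAs and control RNAs was checked for a highest or lowest value far from the other 3, by Dixon's ratio of that gap to the whole range, against the critical value for 4 values. Chance marks about 1 in 20 such sets, and 13 of 178 were marked. On day 1 the ratio was 0.932 for miR-376b, with 1 low value (-32.02 against -29.98 to -29.83 on the scaled log2 axis), 0.867 for miR-181a and 0.867 for let-7f, each with 1 low value. On day 1 single high values gave 0.959 for miR-147, 0.882 for miR-155 and 0.889 for let-7a, whose high value was -22.02 against -22.74 to -22.66. On day 3 single low values gave 0.876 for miR-489 (-32.42 against -30.72 to -30.48), 0.875 for let-7f, 0.919 for miR-29c, 0.898 for miR-30e and 0.895 for miR-221. The control snoRNA135 had 1 early Ct in both arms, 18.01 on day 1 (0.893) and 17.23 on day 3 (0.947).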

How the results depend on the processing

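Relative to the median miRNA, 80 miRNAs were higher and 77 lower on day 3. The higher count became 70 with U6, 72 with snoRNA202, 57 with U87, 38 with snoRNA135 and 13 with Y1. The lower count became 28 with U6, 94 with snoRNA202, 80 with U87, 121 with snoRNA135, 165 with Y1 and 45 at a 2-fold minimum. Leaving out 1 value gave 77 to 80 higher and 76 to 81 lower. Under both scalings it gave 53 to 74 risers, 53 without day 1 value 3, and 19 to 32 fallers, 19 without day 1 value 1. In alternatives chosen after seeing the data, day 1 values 1 and 2 alone gave 33 risers, and day 1 values 3 and 4 alone gave 13 fallers. Of the 70 risers 43 turned negative relative to Y1 and 4 relative to snoRNA135. The sign changes listed next are those with a limma adjusted p under 0.05 in the main or the alternative scaling. Those that passed in neither are left out, among them miR-103 (-0.17, and 0.21 relative to U6) and miR-503 (-0.02, and 0.37 relative to U6). Among the 84 miRNAs named by rule, signs turned relative to Y1 for miR-342-3p (-1.46), miR-181a (-1.69), miR-18a (-0.76), miR-20a (-1.49), miR-669a (-0.25), let-7a (-0.32), let-7f (-0.84), miR-29b (-0.79), miR-21 (-0.02), miR-221 (-0.59), miR-125b-5p (-0.71), miR-99b (-0.81), miR-365 (-1.55), miR-362-3p (-0.27) and miR-532-3p (-0.54). They turned relative to snoRNA135 for miR-181a (-0.70) and miR-20a (-0.49), for miR-20a with median Ct (-0.01) and with the baseline mean as reference (-0.07), and with quantile scaling for miR-126-3p (0.07) and miR-107 (-0.06). The cause was not tested. The arms were compared as unpaired, since the labels give 4 mice taken per time point and no pairing of values across days. Signal limits the 4 miRNAs seen in 1 arm to bounds.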
